A study of Schizosaccharomyces pombe 972h- with 4 samples.

Results

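The response of Ofd2Δ cells of the fission yeast Schizosaccharomyces pombe to 90 min of hypoxia was read from 2 of the 4 arrays of the study, the Ofd2Δ array in hypoxia and the Ofd2Δ array in normal oxygen, both chosen by their sample labels. Wild-type (wt) cells and cells that lack ofd2 (SPAP8A3.02c; strain DL1003, in which a KAN cassette replaced the gene) were grown at 30 °C in YES medium with 2% glucose, then kept for 90 min in flasks at room oxygen (20%) or in the AnaeroGen system (below 1% oxygen). For each condition, 5 µg of RNA from 2 experiments was pooled and put on 1 single-colour NimbleGen array, so a difference between the Ofd2Δ arrays has no replicate check and no p-value is given. Each strain is a single isolate, and a change in RNA per cell or in the make-up of the culture cannot be told apart from a change in a transcript. The arrays measure 4997 targets, 4996 of them with 7 probes in each of 2 blocks and 1 with 10 spots in all, and a target's ratio below is its level in hypoxia over that in normal oxygen, averaged over the blocks. Levels are background-corrected, quantile-normalised intensities in arbitrary units. The 14 spots of a target show only the technical spread within the arrays. No named target carries ofd2, so its level gives no check of the strain label.

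Fission yeast cells in oxygen can respire as well as ferment. Electrons from NADH and succinate pass through the cytochrome bc1 complex, cytochrome c and cytochrome c oxidase to oxygen, and the resulting proton gradient drives the ATP synthase. When oxygen is scarce, the transcription factor Sre1, a homologue of the mammalian sterol regulator SREBP, activates genes whose products need oxygen, among them enzymes of ergosterol and heme synthesis, and it is kept in check by the dioxygenase Ofd1. Ofd2 belongs to the same large class of enzymes, which use 2-oxoglutarate, iron and oxygen.

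In Ofd2Δ cells, the named genes that were lower in hypoxia included genes of respiration (qcr7, cyc1), iron import (str1) and antioxidant defence (pmp20, sod2), and those that were higher included 3 hexose transporter genes and the sterol gene erg31. Counting a target as risen or fallen at 2-fold, 29 of 4997 targets rose (0.58%) and 51 fell (1.02%). At 1.5-fold, 159 were higher (3.18%) and 140 lower (2.8%). A name was at hand for 1650 targets, through which 13 of the risen and 30 of the fallen ones can be named. The names of 3 and 16 of these came only from tables of changed genes that the study drew up from the same arrays, so these 19 are not independent evidence of a direction. Of the 1606 targets named through the table of all genes, 10 rose and 14 fell. Most of the risen targets were dim, with 20 of 29 below the 25th percentile of level, as were 31 of the 51 that fell. Block 1 alone gave 31 targets at least 2-fold higher (0.62%) and 58 lower (1.16%), and block 2 gave 30 (0.6%) and 55 (1.1%). Both blocks passed 2-fold for 21 of the risen and 45 of the fallen targets, and every single spot moved the same way for 23 and 44. The plot of ratio against level shows these targets around a bulk centred close to 1.

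**Figure D1:**
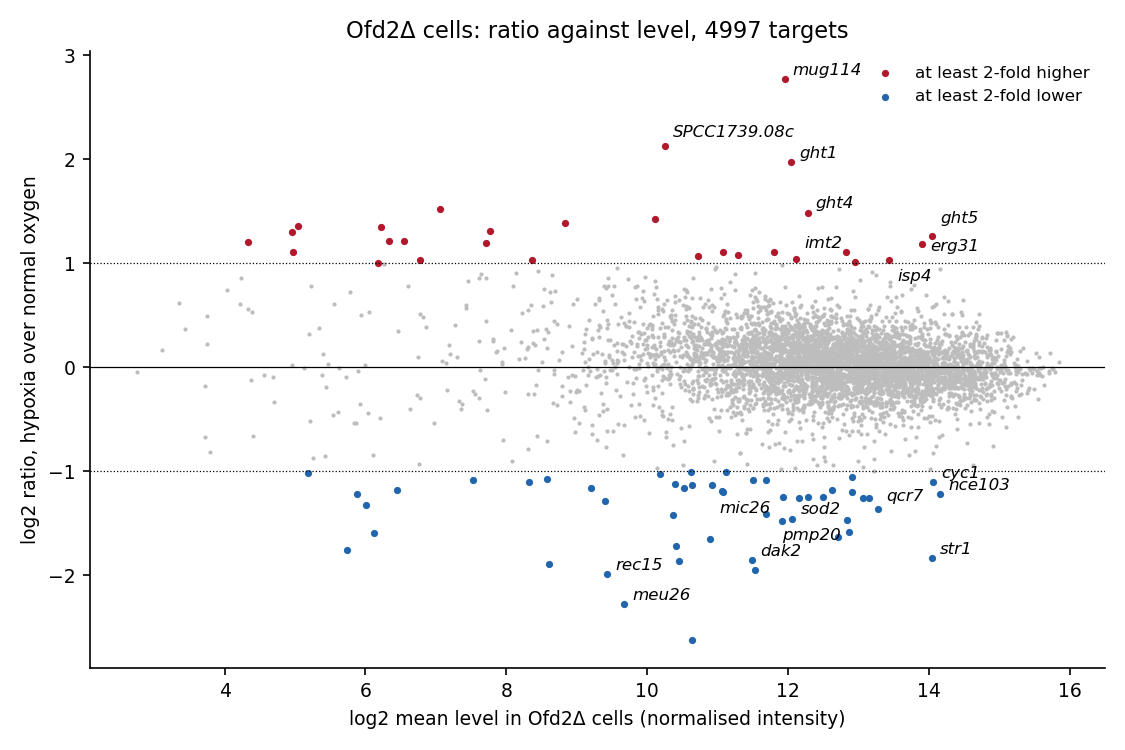
Log2 ratio of hypoxia over normal oxygen in Ofd2Δ cells (vertical axis) against the log2 mean level of both Ofd2Δ arrays (horizontal axis, normalised intensity), 1 point for each of 4997 targets. The 29 red points lie at or above 2-fold and the 51 blue points at or below it (dotted lines), with mug114 at 6.84-fold and str1, a bright target, at a ratio of 0.280.

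The Ofd2Δ hypoxia array stood apart from the other 3. Its intensities are whole numbers for 100% of the spots, against at most 11.5% elsewhere, its median gene spot was 4009 against 6597 to 7529, and it was scanned separately. Its 95th percentile lay at 25.4 times its 5th, against 42.8 to 51.0 times on the others, and 0 of its spots reached 65000, against 77 to 97. The median control spot was 112 on it and 122 to 126 on the others, and at least 4949 targets exceeded the 95th percentile of the controls on every array. The spread of the ratios over targets was wider than in wt, with an SD of 0.32 against 0.24 on the log2 scale, and the log2 ratios of both blocks differed by a median of 0.15, against 0.068 in wt. Among the 1250 dimmest targets 112 were at least 1.5-fold higher and 68 lower, among the 1249 brightest 11 and 16, and the median ratio passed from 1.08 to 0.973. Median scaling in place of quantile normalisation gave 104 risen and 48 fallen targets. Whether the separate scan had a part in these values was not tested, and since every Ofd2Δ ratio rests on this array, no ratio can be had without it.

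Within the respiratory chain, the bc1 complex and cytochrome c were lower in hypoxia. Of 10 listed genes of the cytochrome bc1 complex and cytochrome c, 7 carry a name, and all 7 were at least 1.5-fold lower (2 by 2-fold), against 2.8% and 1.02% of all targets, with a median ratio of 0.589 against 1.02 over all targets. The median was 0.599 over the 5 named through the table of all genes. For qcr7, a small subunit of the bc1 complex, the level was 15979 in normal oxygen and 6191 in hypoxia, with block ratios of 0.393 and 0.382. The cytochrome c gene cyc1 stood at 24999 and 11645, a ratio of 0.466, and each of its 14 spots was lower in hypoxia, with spot ratios from 0.375 to 0.732. The core subunit genes qcr1 and qcr2 had ratios of 0.602 and 0.636, qcr8 0.589 and qcr10 0.523, and the 7 genes differed less from each other than the spots of qcr7 did, which ran from 0.242 to 0.598. The names of qcr8 and qcr10 came from the tables of changed genes.

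Genes of cytochrome c oxidase, the enzyme that hands electrons to oxygen, moved less. Their 7 named members of 15 had a median ratio of 0.706. Of them 1, cox12, was at least 1.5-fold lower, at 0.636, against 2.8% of all targets. The structural subunit genes cox5, cox9 and cox13 had ratios of 0.683, 0.683 and 0.706. By contrast, the assembly factor genes cox19, shy1 and sco1 stood at 0.899, 1.09 and 1.12. The 4 subunit genes thus lay below the 3 assembly factor genes, of which cox19 was dim, a division made after the values were seen. Median scaling gave a list median of 0.823.

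For the ATP synthase, 6 of 16 listed genes are named. Their median was 0.565, with 4 at least 1.5-fold lower and 3 past 2-fold, against 2.8% and 1.02% of all targets. The names of atp7, atp14 and atp16 came from the tables of changed genes. The lowest was inh1, which encodes the inhibitor that stops the enzyme from running backwards, with a level of 2155 in normal oxygen and 803 in hypoxia and a ratio of 0.374. SPCC1840.06c, listed as an ATP synthase gene, fell from 7021 to 2943, a ratio of 0.420 with spot ratios as far apart as 0.153 and 0.841. For the subunit gene atp7 the levels were 4234 and 1980 and the ratio 0.470. Neither inh1 nor atp7 reached the 25th percentile of level, and both are singled out after their values were seen. The genes atp3, atp14 and atp16 had higher ratios of 0.711, 0.707 and 0.659, none of them past 2-fold from the probe files. In the deposited table of normalised values, described further on, atp14 and atp16 passed 2-fold, at 0.351 and 0.298. Both values lay outside the range of the gene's spot ratios. For atp3 that table gave 0.683.

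At the entry of the chain, the NADH dehydrogenase and succinate dehydrogenase genes differed. The NADH dehydrogenase gene ndi1 had a level of 12048 in normal oxygen and 6134 in hypoxia, a ratio of 0.515. A second such gene, nde1 (SPAC3A11.07), named from the tables of changed genes, stood at 40058 and 23659, a ratio of 0.592 with all 14 spots lower. The succinate dehydrogenase subunit gene sdh3, in contrast, had a ratio of 1.30, and tim18, which carries the synonym sdh4, one of 1.05. In the citric acid cycle, which feeds both enzymes, 6 of 14 listed genes are named, with a median of 0.974. Among them the fumarase gene fum1 was lowest at 0.673, lsc2, a subunit of succinyl-CoA ligase, had 0.775, and its partner lsc1 had 1.12. None of these 6 reached 1.5-fold.

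Other mitochondrial genes split. Among 12 named genes of mitochondrial import and inner membrane organisation, 3 fell and 0 rose, against 1.02% and 0.58% of all targets, while the median was 1.05. The 3 were mic26 and mic19, of the complex that shapes the cristae, and cyc2, a gene of cytochrome c maturation. For mic26 the level was 6461 in normal oxygen and 2317 in hypoxia, a ratio of 0.359, and for cyc2 it was 8947 and 3765, a ratio of 0.421. The ratio of mic19, which lay at percentile 24.0 of level and is named after its value was seen, was 0.471. The 9 other genes of the list, subunits of the TIM and TOM translocases among them, lay between 0.891 and 1.21. The names of cyc2 and mic19 came from the tables of changed genes. Median scaling, which leaves the narrower range of the hypoxia array in place, moved the median of this list to 0.914.

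Mitochondrial translation showed 1 gene past 1.5-fold among 25 named, against 2.8% of all targets lower and 3.18% higher at that limit. This was mef1 (SPBC409.22c), a mitochondrial elongation factor, with a level of 18011 in normal oxygen, 10022 in hypoxia, and a ratio of 0.557. Its 14 spots were all lower, from 0.316 to 0.747. For the other 24 genes, most of them of the mitochondrial ribosome, the ratio ran from 0.797 for mrpl35 to 1.35 for mrps17, around a list median of 1.00.

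**Figure D2:**
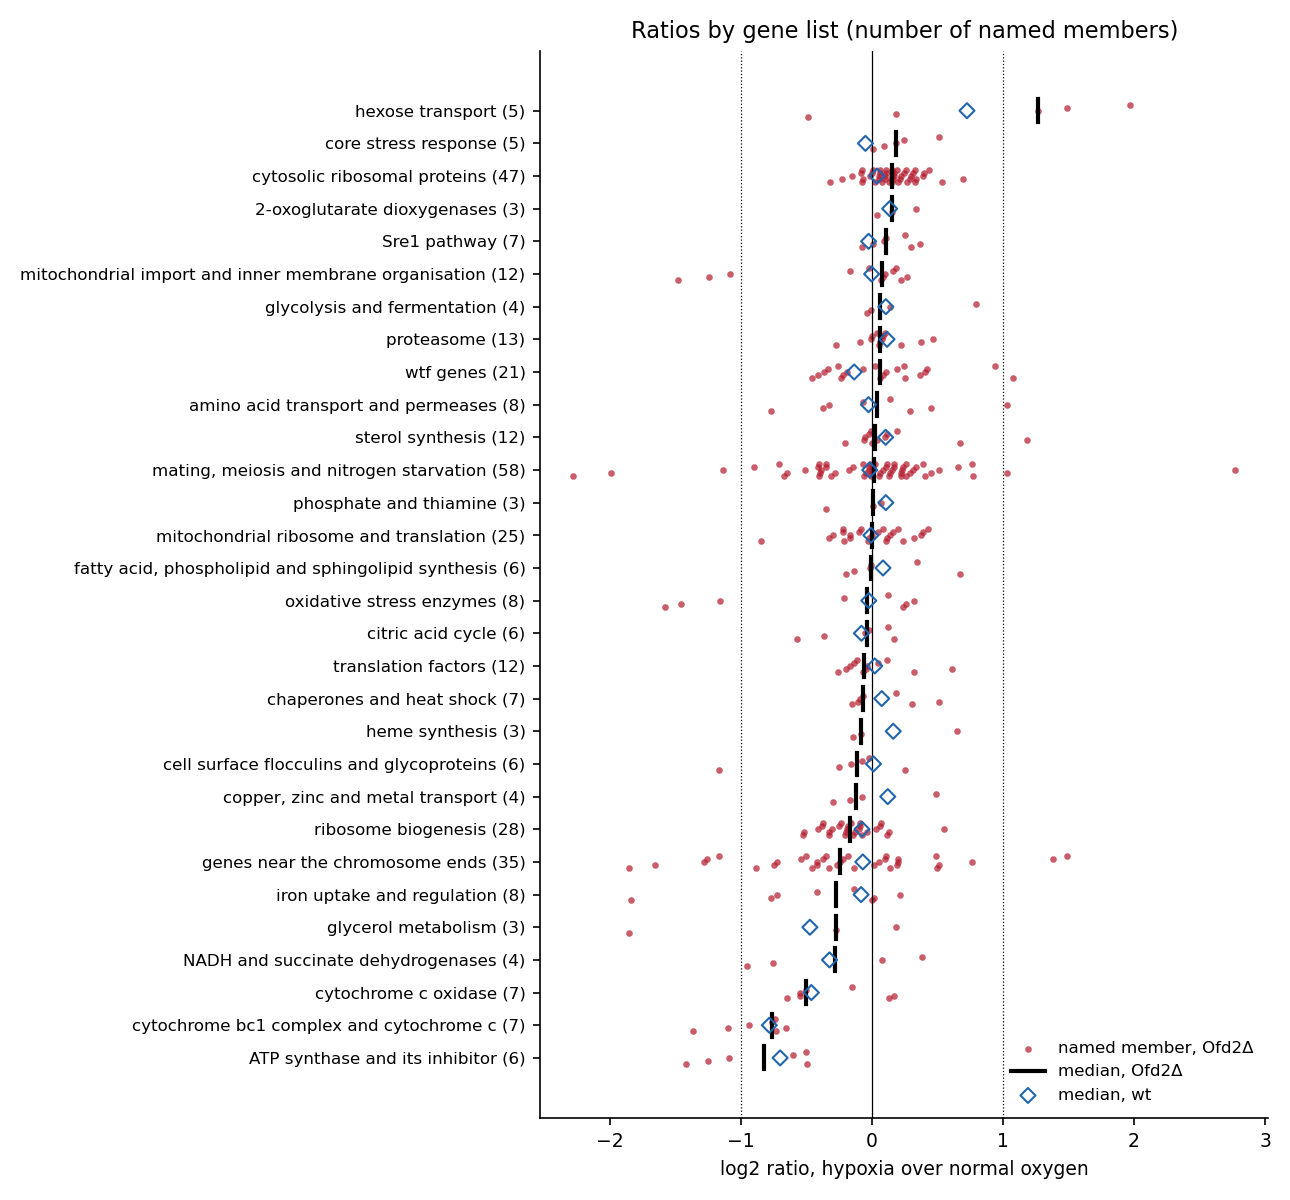
Log2 ratio of hypoxia over normal oxygen (horizontal axis) of the named members of 30 gene lists with at least 3 named members, in Ofd2Δ cells (red points), with the list's median in Ofd2Δ cells (black bar) and in wt (blue diamond). The 7 genes of the bc1 complex and cytochrome c and the 6 of the ATP synthase lie left of 0, and the hexose transport list has its median at a ratio of 2.4.

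Hexose transporters held 3 of the 8 named genes that rose and lay above the 25th percentile of level. Of 8 listed genes 5 are named, with a median ratio of 2.4, and 3 of them rose, against 0.58% of all targets. The gene ght1 had a level of 2136 in normal oxygen and 8359 in hypoxia, a ratio of 3.92 with block ratios of 3.78 and 4.05. For ght4 the level passed from 2983 to 8273, a ratio of 2.80, and for ght5, which encodes the main high-affinity glucose transporter, from 10908 to 26207, a ratio of 2.4. All 14 spots of each of these 3 were higher in hypoxia. Of the other named members, ght6 had a ratio of 1.13, and ght8 was lower, at 0.712, with blocks at 0.530 and 0.893. In wt, ght1 and ght4 had ratios of 1.91 and 1.65 and ght5 one of 2.32.

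The list of glycolysis and fermentation is thinly named, with 4 of 19 genes. Of these, gpd3, one of the genes of glyceraldehyde-3-phosphate dehydrogenase, was higher by 1.73-fold, with levels of 10742 and 18614 and all 14 spots above 1. Little moved among the others, which were adh1 (alcohol dehydrogenase) at 0.972, fba1 (aldolase) at 0.995 and tpi1 (triosephosphate isomerase) at 1.10. Glycerol metabolism held dak2, a dihydroxyacetone kinase gene, which fell from 5441 to 1507, a ratio of 0.277, at percentile 19.6 of level. Its name came from the tables of changed genes, and it is singled out after its value was seen. The glycerol-3-phosphate dehydrogenase genes of the cytosol, gpd1, and of the mitochondrion, gut2, had ratios of 1.14 and 0.825. In the deposited table they stood at 2.07 and 0.943, and the value for gpd1 lay outside its spot ratios of 0.909 to 1.69. The name of gpd1 also came from the tables of changed genes.

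Among genes of sterol synthesis, 12 of 26 listed are named, with a median ratio of 1.01, and 1 of them rose from the probe files, against 0.58% of all targets. In the deposited table of normalised values, described further on, 5 of the 12 passed 2-fold, against 0.5% of all targets. They were erg31 at 2.38, erg11 at 2.23, erg1 at 2.11, erg25 at 2.05 and erg5 at 2.02. The names of 4, erg5, erg11, erg25 and erg31, came from the tables of changed genes. That these 4 passed 2-fold in the deposited table is therefore not independent evidence, and erg1 alone of the 5 was named through the table of all genes. The one that rose was erg31, a sterol C-5 desaturase gene, with a level of 10174 in normal oxygen and 23056 in hypoxia, a ratio of 2.27, and 14 of 14 spots above 1. The squalene epoxidase gene erg1, whose product uses oxygen, was at 15192 and 23798, a ratio of 1.59, with 12 of 14 spots higher. The other 10 lay between 0.867, the squalene synthase gene erg9, and 1.14, the scaffold gene erg28. Median scaling put the median of the list below 1, at 0.828.

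For heme synthesis, 3 of 7 genes are named. The coproporphyrinogen oxidase gene hem13, whose product needs oxygen and whose name came from the tables of changed genes, had levels of 18283 and 28663, a ratio of 1.57 with 13 of 14 spots higher. The decarboxylase gene hem12 had a ratio of 0.946, and the ferrochelatase gene hem15 0.905. The list's median of 0.946 lay above 1 under 4 other settings of the probe files. Of the Sre1 pathway, 7 of 14 genes are named, 0 of which reached 1.5-fold from the probe files. In the deposited table, sre1 and dap1 (2 of the 7) passed 2-fold, against 0.5% of all targets. There sre1 stood at 2.37 and the heme-binding protein gene dap1 at 2.13, for which the probe files gave 1.29 and 1.19. The name of dap1 came from the tables of changed genes. The gene of the factor itself, sre1, stood at 11999 in normal oxygen and 15372 in hypoxia, a ratio of 1.29, with 10 spots higher and 4 lower and 1 spot at 0.0369. The genes of its relative sre2, of the ubiquitin ligase subunit dsc1 and of the Ofd1 inhibitor nro1 had ratios of 1.08, 1.23 and 1.07. Among dioxygenases of the 2-oxoglutarate class, epe1, jmj3 and jmj4 are named, with ratios of 1.11, 1.02 and 1.26.

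Iron uptake held the largest fall of a named gene above the 25th percentile of level. The siderophore transporter gene str1 stood at 31851 in normal oxygen and 8900.4 in hypoxia, block ratios of 0.297 and 0.263, and a ratio of 0.280, with all 14 spots lower, from 0.165 to 0.525. The iron-responsive repressor subunit php4 had levels of 11303 and 6614, a ratio of 0.586. The ferric reductase gene frp1 was at 4806 and 2902, a ratio of 0.605 with 14 of 14 spots lower. Of 20 listed genes 8 are named, with a median of 0.828. The vacuolar siderophore transporter gene abc3 had a ratio of 0.749, and the 4 others, pcl1, str2, frp2 and isa1, ratios of 0.907 to 1.16. The name of str1 came from the tables of changed genes, and without it the median of the list was 0.907. The copper transporter gene ctr4 had a ratio of 0.888, in a list of 4 named genes between 0.815 and 1.40.

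Of 8 named genes of oxidative stress enzymes, 3 fell, against 1.02% of all targets, and the list median was 0.975. The peroxiredoxin gene pmp20 stood at 12973 in normal oxygen and 4307 in hypoxia, a ratio of 0.334, with spots from 0.249 to 0.419. The gene of the mitochondrial manganese superoxide dismutase, sod2, named from the tables of changed genes, was at 7094 and 2565, a ratio of 0.365. The sulfiredoxin gene srx1 was dim, at 880 and 394.0, a ratio of 0.448. The other 5, which include the peroxiredoxin gene tpx1 and the glutaredoxin gene grx3 at 1.25, lay between 0.863 and 1.25. Outside this list, the gene of flavohemoglobin, yhb1, which breaks down nitric oxide with oxygen, had levels of 7138 and 3862 and a ratio of 0.541. The name of yhb1 came from the tables of changed genes. Of 5 named genes of the core stress response list and 7 of the chaperone list, 0 reached 1.5-fold in either direction from the probe files. The medians were 1.14 and 0.951. In the deposited table gpd1, of the core stress response list, stood at 2.07. The gene ssb1, at 0.937 from the probe files, was placed in the chaperone list by symbol alone. For the stress genes median scaling gave 0.825.

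The largest rise of all was that of mug114, a gene first found as up-regulated in meiosis. Its level was 1524 in normal oxygen and 10280.4 in hypoxia, with block ratios of 7.96 and 5.71, and no spot was below 4.11-fold. Of 58 named genes of mating, meiosis and nitrogen starvation, 2 rose and 3 fell, against 0.58% and 1.02% of all targets, with a median of 1.01. All of these but isp4 owe their names to the tables of changed genes. The other that rose was isp4, an oligopeptide transporter gene, with 7751 and 15809 and a ratio of 2.04. The 3 that fell, meu26, rec15 and mug37, were dim, meu26 at 1801 and 370 and rec15, a gene of meiotic recombination, at 1372 and 345, with ratios of 0.206 and 0.251. The next largest rise was that of SPCC1739.08c, a dim target at 583 and 2549 and percentile 7.06 of level, with a ratio of 4.38 against 1.61 in wt and 1.82 in the value table. Outside the lists, imt2, a sphingolipid mannosyltransferase gene, rose from 3082 to 6348, and SPCC584.16c, a gene with no symbol, from 4924 to 10633. The rise of SPCC584.16c, a ratio of 2.16, stood against 1.05 in wt and turned direction in the value table, at 0.911. The carbonic anhydrase gene nce103 fell from 28002 to 12045, a ratio of 0.430, and SPAC1F12.10c from 11818 to 3798, a ratio of 0.322.

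Of the 35 named genes near the chromosome ends, 2 rose and 5 fell, against 0.58% and 1.02% of all targets, and the median ratio was 0.845. The names of 5 of the 35 came from the tables of changed genes, and without these the median was 0.869. Among the 5 were SPBPB2B2.06c of the risen genes and dak2, nrg1 and SPAC977.17 of the fallen ones. Of the 35 genes, 17 lay below the 25th percentile of level. These included SPBPB2B2.06c of the risen genes and dak2, nrg1, alr2 and pfl7 of the fallen ones. Next to each other in the systematic naming, ght4 (SPBC1683.08) had a ratio of 2.80 and frp1 (SPBC1683.09c) one of 0.605. SPAC977.17 fell from 14140.3 to 5884, a ratio of 0.417. Among 21 named wtf genes, a family of meiotic drivers, 1 rose, against 0.58% of all targets. This was wtf7, from 1166 to 2452 at percentile 10.4 of level, named after its value was seen. The list's median was 1.04, and 1.39 with median scaling.

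For cytosolic ribosomal proteins, 39 of 47 named genes had a ratio above 1, against 2686 of all 4997 targets, and 0 passed 2-fold. Their median was 1.11, but median scaling turned this to 0.805, and the value table gave 0.958. The 28 named genes of the ribosome biogenesis list had a median of 0.889. Of these, 22 were below 1, against 2311 of all 4997 targets, and 0 were past 1.5-fold. Among them, mak3 at 1.02 and dim1, the highest at 1.46, were placed in the list by symbol alone. Its lowest member was utp25, at 0.694, and bms1 had 0.752. For the lists of 13 proteasome genes and 12 translation factors the medians were 1.05 and 0.959, and median scaling gave 0.911 and 0.752. The highest member of the translation factor list, gcd1 at 1.53, was placed in it by symbol alone. The histone genes hta1 and htb1, both named in a list of 11, had ratios of 0.902 and 0.788.

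The ratios of every spot of 21 genes, chosen to show respiratory, transport and sterol genes together with those for which both deposited sources differ most, are drawn next.

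**Figure D3:**
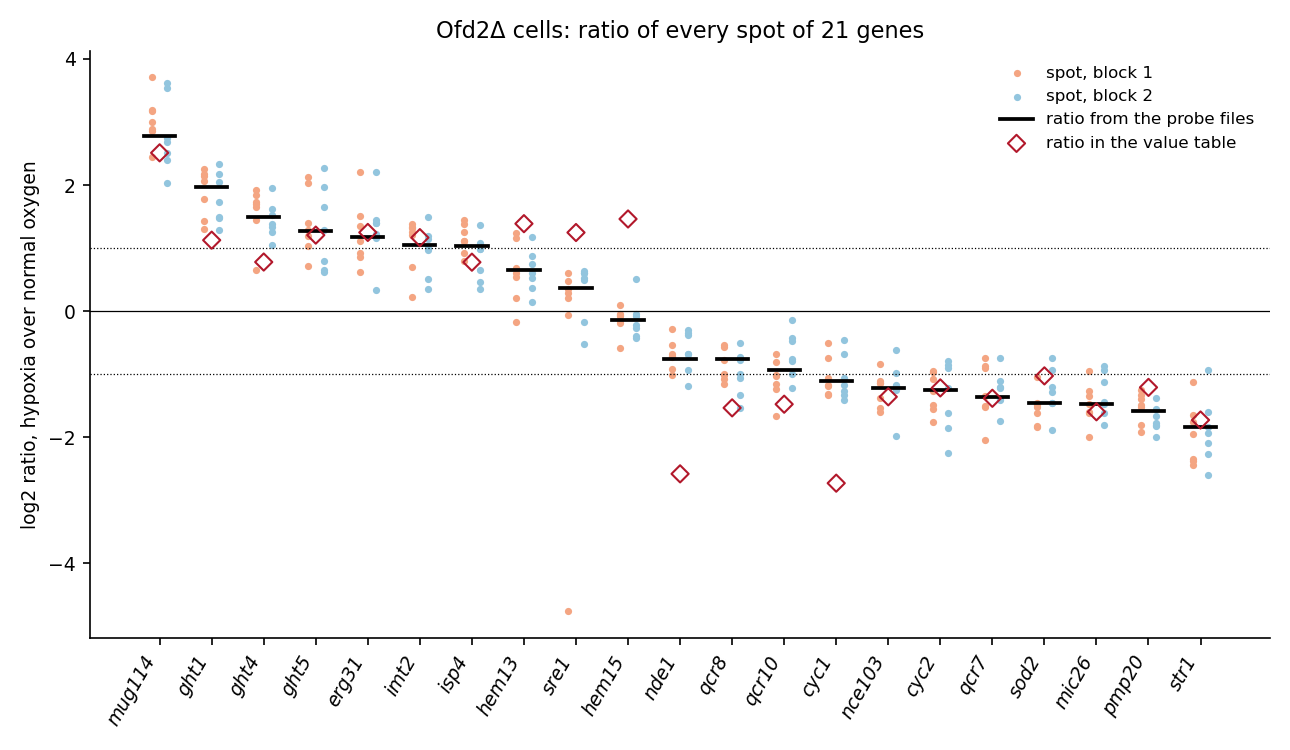
Log2 ratio of hypoxia over normal oxygen in Ofd2Δ cells of each spot (orange, block 1; blue, block 2) of 21 genes, with the gene's ratio from the probe files (black bar) and in the deposited value table (red diamond). For cyc1, nde1, hem15 and sre1 the diamond lies outside the range of all 14 spots, whereas for ght5, erg31, qcr7 and str1 it lies within it.

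The authors also deposited a table of normalised gene values, from which the same ratio was taken. For Ofd2Δ cells it put 25 targets past 2-fold upwards (0.5%) and 42 downwards (0.841%), and 113 (2.26%) and 119 (2.38%) past 1.5-fold. Of the 42, 26 were shared with the probe files, 61.9% of the table's and 51.0% of the probe files' targets. Of the 25 that were higher, 6 were shared, 24.0% of the table's and 20.7% of the probe files'. At 1.5-fold the table held 13 of the 29 targets that rose in the probe files and 35 of the 51 that fell, while 5 of the 29 and 5 of the 51 had the other direction in it. All 25 and 41 of the 42 are named, against 1650 of all 4997 targets, since the tables of changed genes supplied names, so counts of named genes past 2-fold in the table are not independent evidence. The named genes higher in both include mug114, ght1, ght5, erg31 and imt2, and those lower in both qcr7, str1, pmp20, sod2, mic26 and nce103. Across the 4997 targets, which share arrays and probes and are not independent, the log2 ratios of both sources correlated with r = 0.588 in Ofd2Δ cells and r = 0.943 in wt. The ratios were apart by at least 1.5-fold for 224 targets in Ofd2Δ cells and for 18 in wt. For the levels, the SD of the log2 difference between both sources was 0.29 on the Ofd2Δ hypoxia array and 0.12 to 0.13 on the other 3.

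**Figure D4:**
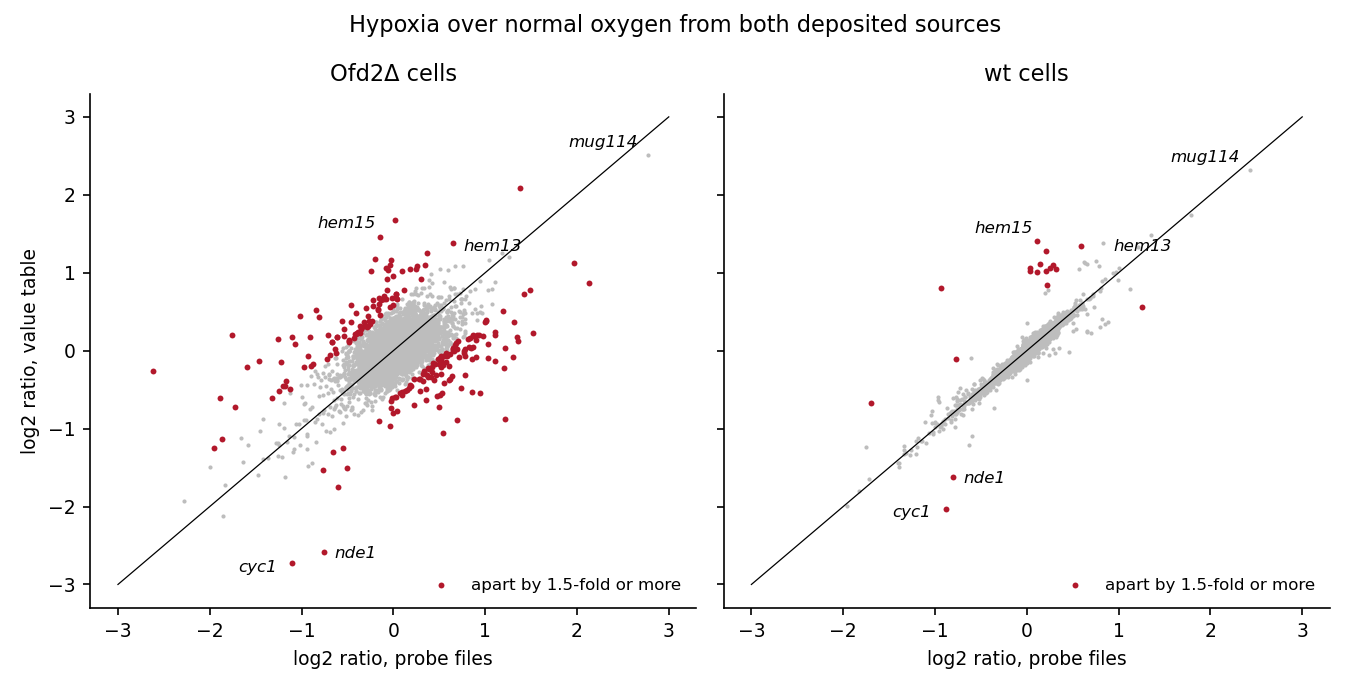
Log2 ratio of hypoxia over normal oxygen in the deposited value table (vertical axis) against that from the probe files (horizontal axis) for 4997 targets, in Ofd2Δ cells (left) and wt (right), with the line of equality. Red points are apart by 1.5-fold or more, 224 in Ofd2Δ cells and 18 in wt.

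Of these targets 17 were apart in both strains, 16 of them in the same direction, and they include genes of sterol and heme synthesis and of respiration. In Ofd2Δ cells the table's ratio was the higher one for 13 of the 17, and for 14 it lay outside the range of all spot ratios of the target. The ferrochelatase gene hem15 had levels of 3844 and 3467 from the probe files but of 3219 and 8848 in the table, ratios of 0.905 and 2.76, while its spots lay between 0.665 and 1.43. For cyc1 the table gave 22808 in normal oxygen and 3439 in hypoxia, a ratio of 0.151, and for nde1 35634 and 5952, a ratio of 0.167. In wt the table's ratios for hem15, cyc1 and nde1 were 2.64, 0.244 and 0.326, against 1.08, 0.545 and 0.573 from the probe files. The lanosterol demethylase gene erg11 had a ratio of 2.23 in the table and 0.982 from the probe files, sre1 2.37 and 1.29, and hem13 2.62 and 1.57. For the bc1 complex with cytochrome c, the ATP synthase and heme synthesis, the list medians in the table were 0.384, 0.387 and 2.62, against 0.589, 0.565 and 0.946. In each of these lists, part of the names came from the tables of changed genes. What separates the sources for these targets was not tested. The table's column medians were 5378 for Ofd2Δ cells in normal oxygen and 5726 in hypoxia, against 5446 and 5440 in wt, and how its columns were scaled is not given in the sources used here beyond the name RMA.

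Set beside wt, where 7 targets rose (0.14%) and 28 fell (0.56%), 4 of the 29 risen and 20 of the 51 fallen targets of Ofd2Δ cells also passed 2-fold. At 1.5-fold, 44 targets of wt were higher (0.881%) and 119 lower (2.38%), among them 13 of the 29 and 39 of the 51. The strains share no array, but all 4 arrays were normalised together and each comparison rests on 1 array per condition, so the difference between them has no test and cannot be told apart from the separate scan of the Ofd2Δ hypoxia array. The Ofd2Δ ratio lay at least 1.5-fold above the wt ratio for 98 targets (1.96%) and below it for 37 (0.74%), and 72 and 21 of these were below the 25th percentile of level. The gene str1 had the lowest quotient among the named genes above that percentile, 0.482 times the wt ratio, its levels in wt being 33294 and 19328. For ght1 and ght4 the Ofd2Δ ratio was 2.05 and 1.70 times that of wt. Of the 98 targets 4 lay above the limit in the value table as well, where 53 did in all (1.06%). That is 4.08% of the probe files' and 7.55% of the table's targets. Of the 37 below it 2 did, where the table held 27 (0.54%), and one of these was str1, with table ratios of 0.302 in Ofd2Δ cells and 0.509 in wt. In the table ght1 had ratios of 2.18 in Ofd2Δ cells and 2.00 in wt, and ght4 1.72 and 1.66. From the probe files the median ratios in wt were 0.581 for the bc1 complex and cytochrome c, 0.726 for cytochrome c oxidase and 0.615 for the ATP synthase, against 0.589, 0.706 and 0.565 in Ofd2Δ cells. In the value table the strains lay further apart for the first and the last of these lists, with medians of 0.384 in Ofd2Δ cells and 0.597 in wt for the bc1 complex and cytochrome c, and of 0.387 and 0.485 for the ATP synthase. For cytochrome c oxidase the table gave 0.720 and 0.719. Of the bc1 and cytochrome c genes, 2 of 7 owe their names to the tables of changed genes, and of the ATP synthase genes 3 of 6. Among them, qcr8, qcr10 and atp7 passed 2-fold in the value table in Ofd2Δ cells only. The table medians of both lists are therefore not independent evidence of a difference between the strains. These differences between the strains were not tested.

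**Figure D5:**
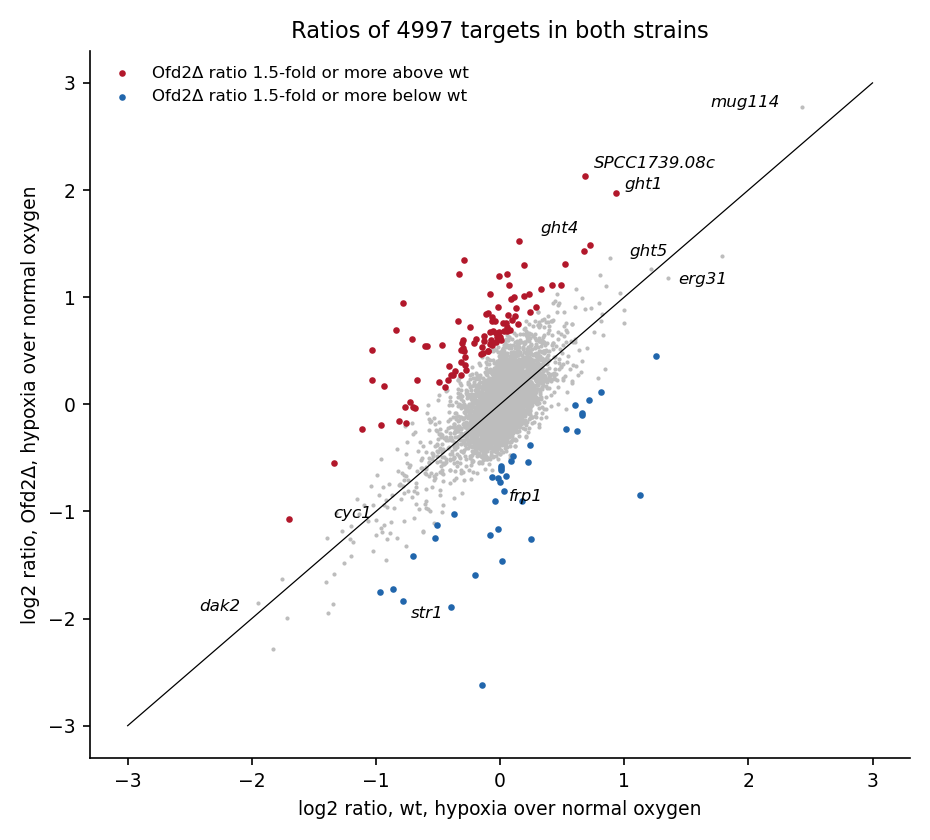
Log2 ratio of hypoxia over normal oxygen in Ofd2Δ cells (vertical axis) against that in wt (horizontal axis) for 4997 targets from the probe files, with the line of equality. The 98 red points lie at least 1.5-fold above the line and the 37 blue points at least 1.5-fold below it, among them str1, while cyc1, erg31, ght5 and mug114 lie within that limit.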

How the data were processed

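The authors deposited, for each array, the intensity of every spot on a linear scale as extracted with NimbleScan 2.4.31, without background correction or normalisation, and a table of normalised intensity values with 2 blocks per target, for which the submitters' notes name RMA without a version. Each array holds 69954 gene spots and 2083 control spots of random sequence. From the spots, the background was removed with the RMA convolution model, its mean and SD taken from the control spots (median and scaled median absolute deviation). The 4 arrays were quantile-normalised and log2-transformed, and a median polish over the spots of each target gave 1 value per block (numpy 2.4.6, pandas 2.3.3). Ratios were taken within a block and then averaged. The usual fit of the background to the gene spots gave means of 1834 on the Ofd2Δ hypoxia array and 218 on the Ofd2Δ normal oxygen array, while the control medians were 112 and 122, so the control spots were used. This choice was made after its effect on the counts had been seen.

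Names came from target descriptions in the study's supplementary tables. Of the table of all genes, 1694 targets were at hand, and their values are those of the value table in each of the 1694 cases. The value table's rows carry running numbers only and were paired with targets by the order of the target IDs. That pairing was checked on these 1694 targets, and for the 3303 others it rests on the order. In all 1650 targets were named, 44 of them only from tables of changed genes, and 1621 were found in RefSeq (assembly ASM294v3), 1378 with a symbol. Columns of the authors' own fold changes in those tables were not used.

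The members, gene lists and limits of 2-fold and 1.5-fold were chosen with earlier results of these data known. The genes followed through all settings include the 12 largest rises and the 12 largest falls whose blocks each moved at least 1.2-fold the same way. Dim targets (below the 25th percentile of level) are excepted there. Also followed are genes the study names and up to 4 genes per list by size of ratio above that percentile. Up to 4 dim genes past 2-fold and up to 4 genes that differ most between both sources were added. Not all of these genes are named in the text. Other genes are named in describing a list. Some list members that belong to another gene family by symbol alone were taken out after values had been seen. Others placed by symbol alone, among them car1, mak3, dim1, gcd1 and ssb1, were kept, and the list values include them. The steps were tested on simulated data. No test was made, since there is 1 array per condition. Alternatives changed background, normalisation, summary, low and saturated spots and the source of values, with limma 3.58.1 for normexp.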

Additional observations from a re-analysis of the deposited data

Results flagged for a closer look

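With 1 array per condition, only a difference in direction between the strains could be looked for, and it was not tested. The search covered genes at least 1.5-fold changed in Ofd2Δ cells among the 122 followed through all settings. Other named genes met the rule outside this set, such as SPBC1D7.01c at 1.56 in Ofd2Δ cells and 0.914 in wt. The phospholipid methyltransferase gene cho1 had a ratio of 1.59 in Ofd2Δ cells and 0.944 in wt, with levels of 8606 and 13683 in Ofd2Δ cells and 13 of 14 spots higher in hypoxia. In the value table its ratio in Ofd2Δ cells was 1.05. The ferric reductase gene frp1 had a ratio of 0.605 in Ofd2Δ cells against 1.00 in wt, where it hardly changed. The value table gave 0.926 for it. All of these Ofd2Δ ratios rest on the separately scanned hypoxia array, whose part in them was not tested.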

How the results depend on the processing

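No paired analysis was possible because the labels give no replicate numbers and each condition has 1 array. The 29 risen targets became 14 without background correction, 16 with normexp, 104 with median scaling and 9 without targets under the 25th percentile of level, which left 20 of the 51 fallen ones. The 98 targets at least 1.5-fold above the wt ratio became 62 without background correction, 450 with median scaling, 26 with the level filter, and 53 in the value table (41 after its columns were quantile-normalised). The 37 below it became 23, 256 and 16 in the same order, and 68 in block 1 alone and 22 in the quantile-normalised table. Fitting the background to the gene spots, added after seeing the data, gave 20 risen, 49 fallen, 78 above and 29 below, with 14 of the 29 and 37 of the 51 called shared. In every alternative but the level filter, 3 risen targets (mug114, ght1 and imt2) and 18 fallen ones were kept.

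List medians under the value table and its quantile-normalised form, the latter also added after seeing the data, were 0.384 and 0.378 for the bc1 complex and cytochrome c, 0.387 and 0.372 for the ATP synthase, 2.62 and 2.73 for heme synthesis, and 1.72 and 1.59 for hexose transport. Median scaling gave 0.751 for oxidative stress enzymes, 0.825 for the core stress response, 0.802 for amino acid transport, 0.805 for ribosomal proteins, 0.752 for translation factors and 1.39 for wtf genes. Of the 29 risen and 51 fallen targets, 5 and 5 had the other direction in the value table. Among the 122 genes followed through all settings, the one that did was SPCC584.16c, 2.16 from the probe files against 0.911 and 0.852 in both forms of the table. The cause was not tested. The number of arrays limits the precision, and the median gene spot was 35.8 times the median control spot on the Ofd2Δ hypoxia array and 54.1 to 60.4 times on the others. The counts cannot be had without that array.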

Other observations

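Of the targets that changed most in Ofd2Δ cells, several carry no name here. The lowest ratio of all was 0.162, that of target TI4896S002783, at percentile 18.5 of level, with block ratios of 0.188 and 0.137. The wt arrays gave it 0.906, and for the Ofd2Δ pair the deposited normalised values gave 0.837. The highest of an unnamed target was 2.88, that of TI4896S004238, at percentile 1.40 of level, with 1.11 in wt and 1.17 in the value table. In the list of amino acid transport and permeases, with 8 named members, aat1 had a ratio of 0.770 and agp3 one of 1.37. The ratio of car1, whose place in the list rests on its symbol alone, was 0.587. The gene nrg1 near a chromosome end fell from 3371 to 1070, a ratio of 0.318, at percentile 14.2 of level, and was picked after its value was seen.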
